A study of Solanum lycopersicum with 32 samples.

Results

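Tomato stems were compared between 2 graft combinations: 35S:SFT//sft, labelled as a donor that overexpresses SFT from the constitutive 35S promoter on an sft mutant recipient, and sft//sft, labelled sft for both partners. Each combination had 2 RNA-seq libraries, so 4 of the 32 libraries of the series carry the comparison, and they were taken by the sample numbers that head their columns. Graft labels are written donor//recipient. The other grafts used beside them were 35S:SFT//WT, 35S:SFT//sp and WT//WT (2 libraries each), where WT is the wild type and sp a mutant of SELF PRUNING. Experiments without grafts supplied 3 further contrasts with no library in common: pSFT-SFT against sft stems, 35S:SFT against WT stems, and heat-treated sft stems with a pHS:FT transgene (the FT gene behind a heat-inducible promoter) against heat-treated sft stems without it. All material was stem, taken as mid-segments of internodes. The labels do not say which graft partner's stem was taken, and the sft//sft libraries are titled as grafts with a wt partner although their genotype label reads sft//sft; the genotype label was followed. Whether the 2 libraries of a combination came from separate plants is not stated either, so the p-values speak to the spread among libraries alone, and that spread may be technical.

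SFT (SINGLE FLOWER TRUSS) is the tomato relative of Arabidopsis FT and encodes florigen, a small protein that is made in leaves, moves in the phloem and promotes flowering in distant tips. A graft places the source of florigen in one partner and the responding tissue in the other, so the recipient can be exposed to the protein without carrying the transgene. In flowering plants, genes of the FRUITFULL clade of MADS-box transcription factors are known to respond to FT-type signals. Tomato has 4 of them, FUL1 and FUL2 (also studied for their part in fruit ripening) and MBP10 and MBP20. SELF PRUNING (SP) is a relative of SFT with the opposing action on growth, known for determinate tomato varieties.

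The values are whole-number read counts per gene. The 4 libraries held 32244205 and 35727373 reads for 35S:SFT//sft and 35816538 and 28653604 reads for sft//sft, within the range of 28114019 to 45790153 over all 10 graft libraries. Levels are given as CPM, reads scaled to a common library total after TMM normalization, which are not corrected for gene length. Both 35S:SFT//sft libraries resembled each other closely, with a Pearson correlation of 0.988 in log2 CPM across 21566 genes. The sft//sft libraries gave 0.973, the lowest of the 5 pairs within a graft group. The second sft//sft library correlated at 0.988 with the second 35S:SFT//sft library, and the first at 0.988 with the first WT//WT library. The control group of this comparison was therefore the more variable one, and counts that turn on 1 of its libraries are given with and without it.

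**Figure D1:**
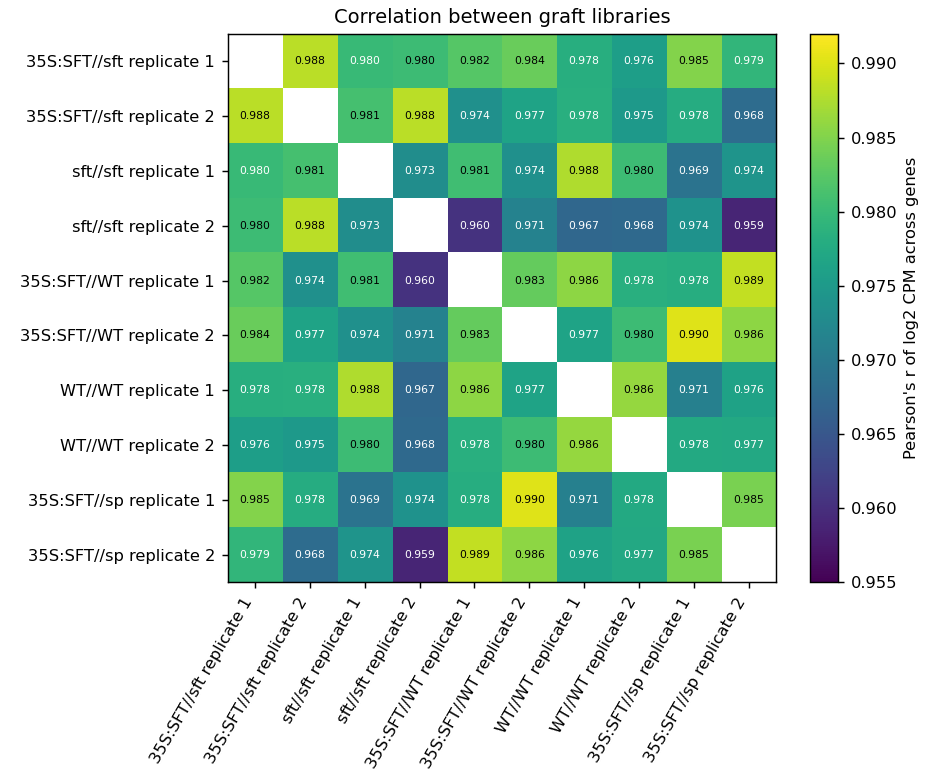
Pearson's r of log2 CPM across 21566 genes for each pair of the 10 graft libraries, with groups in blocks of 2. The 35S:SFT//sft pair stands at 0.988 and the sft//sft pair at 0.973.

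At most of the genes that set ungrafted sft stems apart from WT stems, the 4 libraries lay on the sft side. Between ungrafted stems titled sft, which carry the genotype label SFT, and WT stems, edgeR's quasi-likelihood test called 12 genes (0.0568% of 21141), of which 3 were higher and 9 lower in sft. At 9 of these 12 genes, the 4 libraries of 35S:SFT//sft and sft//sft lay wholly on the sft side of the 4 libraries of 35S:SFT//WT and WT//WT. Over all genes tested in grafts, 6.82% separated those libraries in either direction. Solyc06g083500, the first of the 12 by p, stood between 0.157 and 0.487 CPM in the sft recipients and between 5.21 and 5.34 CPM in the WT recipients. It was as low in 35S:SFT//sp stems, at 0.841 and 0.382 CPM, so its low level was not particular to sft recipients. Solyc11g066090 stood between 4.79 and 5.75 CPM in the sft recipients and between 11.7 and 22.3 CPM in the WT recipients, with 14.3 and 15.1 CPM in 35S:SFT//sp stems. The files do not pair identifiers with gene names, so most genes appear here by identifier only.

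**Figure D2:**
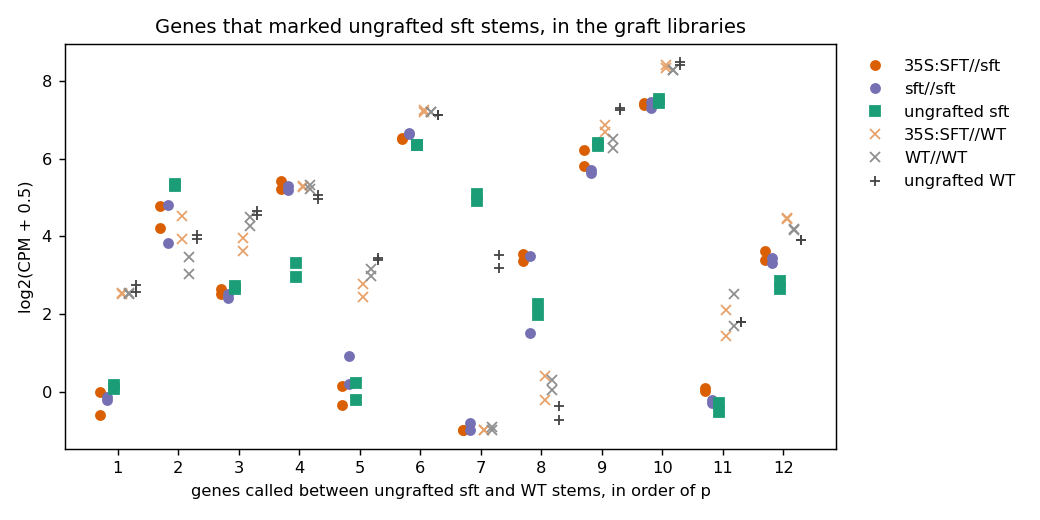
Log2(CPM + 0.5) of the 12 genes called between ungrafted sft and WT stems, with a point for each library of 6 groups. At 9 of the 12 genes the circles of the sft recipients lie apart from the crosses of the WT recipients and on the side of the ungrafted sft stems.

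FUL2 led the comparison. It stood at 10.7 and 7.30 CPM (341 and 255 reads) in 35S:SFT//sft stems, against 0.799 and 0.715 CPM (29 and 20 reads) in sft//sft stems. Both libraries with the overexpressing donor were far above both controls. The fitted log2 fold change was 3.56 (SE 0.31), rank 1 of 21566 genes by p, with an adjusted p of 0.067 by edgeR with Benjamini-Hochberg adjustment. The call at 0.05 was missed in that fit and made in one with a term for the run of sample numbers, which split the graft libraries into an early and a late run with 1 library of each group in each (adjusted p = 0.035). DESeq2 gave it an adjusted p of 1.3e-18, and over the 12 alternative settings tried the value ran from 3.3e-24 to 0.94, with the log2 fold change between 3.27 and 3.81.

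FUL1 gave 3.95 and 3.84 CPM (126 and 134 reads) in 35S:SFT//sft stems, against 0.661 and 0.25 CPM (24 and 7 reads) in sft//sft stems. The groups did not overlap, as was so for 32.9% of all genes tested. Its log2 fold change was 3.04 (SE 0.37), rank 4 by p, with an adjusted p of 0.18 by edgeR. DESeq2 called it at an adjusted p of 6.7e-11, within a range of 6.7e-11 to 1 over the alternatives.

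MBP10 was far less abundant, at 28 and 25 reads (0.878 and 0.716 CPM) in 35S:SFT//sft stems, against 5 and 3 reads (0.138 and 0.107 CPM) in sft//sft stems. Its log2 fold change of 2.65 (SE 0.79) carried an adjusted p of 0.95. MBP20 was near the limit of detection, with 4 and 1 reads in 35S:SFT//sft stems, against 1 and 0 reads in sft//sft stems (log2 fold change 2.05, SE 1.31, adjusted p = 0.95). All 4 clade members were thus higher on average in 35S:SFT//sft stems, MBP20 on very few reads. The median log2 fold change over all genes tested was -0.008. By edgeR, 0 of the 4 passed the threshold, as did 0 of the 21566 genes. In whole stems, a change in the number of cells that express a gene and a change in the RNA of each cell cannot be told apart.

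**Figure D3:**
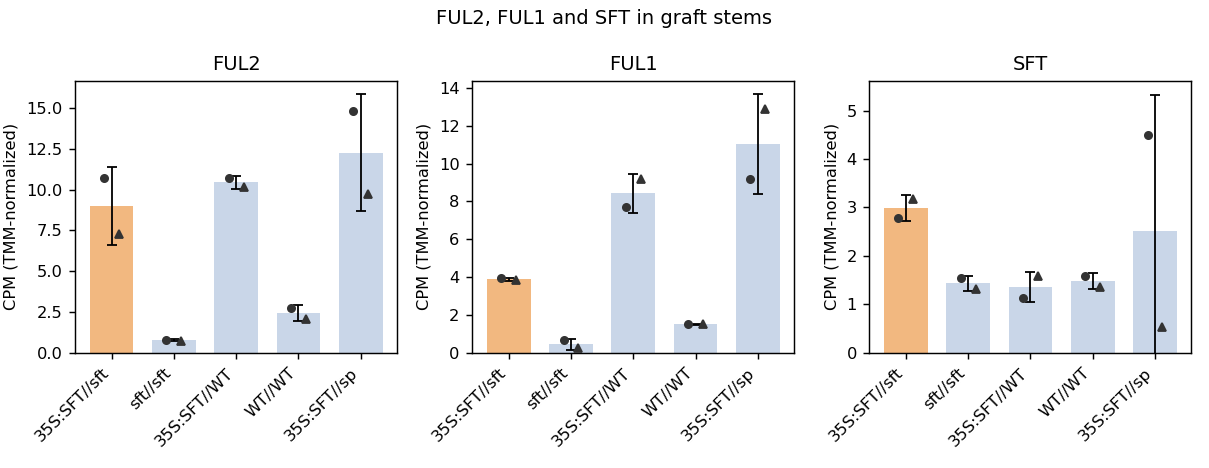
CPM of FUL2, FUL1 and SFT in the 5 graft combinations; bars are means, error bars the SD of 2 libraries, circles replicate 1 and triangles replicate 2. FUL2 averages 9.0 CPM in 35S:SFT//sft libraries and 0.757 CPM in those of sft//sft, and SFT stays at or below 3.18 CPM in all 4.

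The wild-type recipients give the scale of these levels. FUL2 stood at 10.7 and 10.2 CPM in 35S:SFT//WT stems and at 2.77 and 2.09 CPM in WT//WT stems. FUL2 in 35S:SFT//sft stems therefore differed from that in 35S:SFT//WT stems by a log2 of -0.22 (SE 0.26, adjusted p = 0.80 by edgeR). It lay above WT//WT stems by a log2 of 1.89 (SE 0.27, adjusted p = 0.088). FUL1 took another place: at 7.70 and 9.17 CPM in 35S:SFT//WT stems and 1.51 and 1.5 CPM in WT//WT stems, it ran lower in 35S:SFT//sft than in 35S:SFT//WT stems by a log2 of -1.11 (SE 0.30, adjusted p = 0.32). It lay above WT//WT stems by a log2 of 1.37 (SE 0.32, adjusted p = 0.28).

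In order of mean level, FUL2 ran from 35S:SFT//sp (12.3 CPM) through 35S:SFT//WT (10.4 CPM), 35S:SFT//sft (9.0 CPM) and WT//WT (2.43 CPM) to sft//sft (0.757 CPM). The libraries of the 3 groups with the 35S:SFT donor overlapped at FUL2, and each lay above every library of the groups without it. FUL1 kept this order, from 11.1 CPM in 35S:SFT//sp to 0.456 CPM in sft//sft, and there the 35S:SFT//sft libraries lay below all those of the other groups with the donor.

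The response to the donor was also compared between recipients. For FUL2 the donor response was 3.56 in sft recipients and 2.1 (SE 0.27) in WT recipients on the log2 scale, a difference of 1.46 (SE 0.41, adjusted p = 1). For FUL1 the responses were 3.04 in sft recipients and 2.49 (SE 0.32) in WT recipients, a difference of 0.55 (SE 0.48, adjusted p = 1). Across all genes, 0 of 21566 differed between recipients by edgeR, 826 had an unadjusted p under 0.05 (3.83%), and DESeq2 called 21.

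SFT itself was read at low levels throughout. It gave 2.79 and 3.18 CPM (89 and 111 reads) in 35S:SFT//sft stems, against 1.54 and 1.32 CPM (56 and 37 reads) in sft//sft stems, for a log2 fold change of 1.05 (SE 0.76, adjusted p = 0.96). WT//WT stems gave 1.59 and 1.36 CPM, so sft//sft stems held SFT reads at about the wild-type level. 35S:SFT//WT stems gave 1.14 and 1.58 CPM and 35S:SFT//sp stems 4.51 and 0.531 CPM, a pair that differs more than any of the group means. Ungrafted 35S:SFT stems, by comparison, held 61.9 ± 3.0 CPM (SD, n = 2). Every graft library thus held far fewer SFT reads than the stems of the overexpressing line itself. The WT stems of that experiment had 0 SFT reads in both libraries, where the WT//WT grafts had 58 and 48. The baseline of SFT therefore differed between the experiments. SP had 0 reads in all 4 libraries of 35S:SFT//sft and sft//sft, where 3 reads would equal 0.0838 to 0.105 CPM, and was not tested.

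The same genes were followed in the experiments that share no library with the grafts. In pSFT-SFT stems FUL2 averaged 17.5 ± 3.02 CPM, against 0.443 ± 0.0665 CPM in sft stems (SD, n = 2 each), a log2 fold change of 5.30 (adjusted p = 0.00018). FUL1 averaged 51.4 ± 9.37 CPM in pSFT-SFT stems and 1.03 ± 0.0716 CPM in sft stems, a log2 fold change of 5.64 (adjusted p = 9.1e-05). MBP10 rose there too, to 4.66 ± 0.584 CPM in pSFT-SFT stems, against 0.260 ± 0.0437 CPM in sft stems (adjusted p = 5e-04), and so did MBP20 (log2 fold change 5.18, adjusted p = 0.0022). All 4 clade members were called higher in that contrast, in which 10.3% of 21141 genes were called higher. SFT went the other way, at 1.14 ± 0.141 CPM in pSFT-SFT stems and 2.42 ± 0.236 CPM in sft stems (log2 fold change -1.09, adjusted p = 0.025).

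Heated pHS:FT stems gave FUL2 at 5.73 ± 1.35 CPM, against 0.583 ± 0.155 CPM in heated sft stems, a log2 fold change of 3.30 (SE 0.61, adjusted p = 0.038). FUL1 gave 8.44 ± 0.157 CPM in heated pHS:FT stems and 0.824 ± 0.0103 CPM in heated sft stems (log2 fold change 3.35, SE 0.95, adjusted p = 0.13). FUL2 was thus called in that contrast and FUL1 was not, where 2.01% of 20546 genes were called higher. MBP10 and MBP20 were not tested there. Unheated sft stems, without the transgene, gave FUL1 at 4.25 and 0.262 CPM and FUL2 at 2.06 and 0.741 CPM. A low FUL1 level was therefore not uniform among sft stems. The first of these libraries exceeded the 3.95 and 3.84 CPM of the 35S:SFT//sft libraries at FUL1. The sizes in sft stems with a graft donor and with a heat-induced transgene were close (3.56 and 3.30 for FUL2, 3.04 and 3.35 for FUL1), but the experiments were normalized and fitted separately and their difference was not tested.

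Across all genes the contrast of 35S:SFT//sft with sft//sft was small. edgeR called 0 of 21566 genes (0%), 1066 had an unadjusted p under 0.05 (4.94%), and 492 of these were higher (2.28%) and 574 lower (2.66%) in 35S:SFT//sft stems. In that fit, which had no term for the run of sample numbers, the share is about what the threshold would pass among genes with no difference. With the term, edgeR called 5 genes and 1889 had an unadjusted p under 0.05. Without it, the median absolute log2 fold change was 0.131, and 703 genes differed by 2-fold or more. DESeq2 called 42 genes (0.195%), 22 higher and 20 lower, with log2 fold changes in edgeR's direction. Without the second sft//sft library edgeR called 2 genes and 1657 had an unadjusted p under 0.05; without the first, the numbers were 0 and 906.

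**Figure D4:**
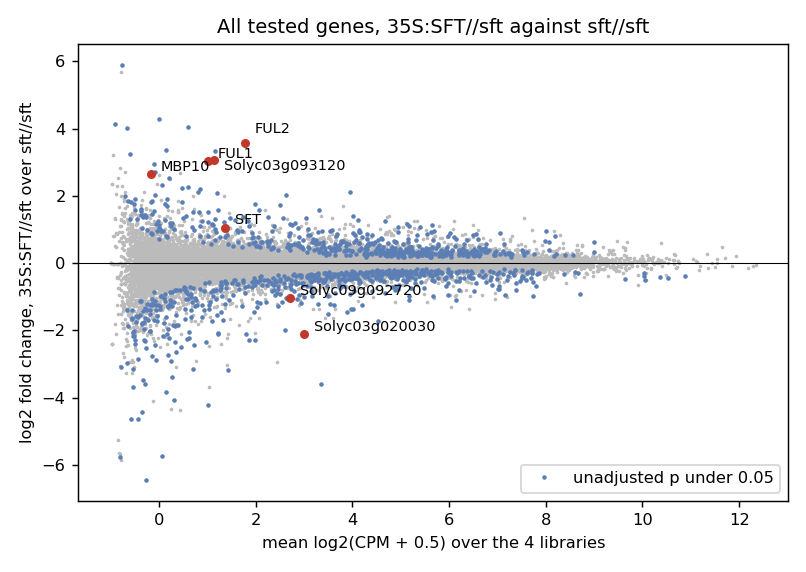
Log2 fold change of 35S:SFT//sft over sft//sft against mean log2(CPM + 0.5) for 21566 genes, with the 1066 genes at an unadjusted p under 0.05 in blue and named genes in red. FUL2 lies at 3.56 and Solyc03g020030 at -2.11; most genes lie near 0.

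To look at what moved beside the FRUITFULL genes, the 12 genes with the smallest edgeR p in each direction were taken from those with a mean log2(CPM + 0.5) of at least 1 and groups that did not overlap. The 12 higher genes had log2 fold changes of 0.56 to 3.56 (median 1.59) and the 12 lower genes of -2.11 to -0.64 (median -1.22), and since they were ranked on this contrast these values are a description. All 24 were among the 42 genes that DESeq2 called.

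Solyc03g093120, second among the higher genes, stood at 4.2 and 4.38 CPM (134 and 153 reads) in 35S:SFT//sft stems, against 0.551 and 0.465 CPM (20 and 13 reads) in sft//sft stems. No other graft library exceeded 1.20 CPM, so both 35S:SFT//sft libraries stood apart among the grafts. The log2 fold change was 3.06 (SE 0.31, adjusted p = 0.098 by edgeR, and 0.035 with the term for the run of sample numbers). Its level was not unusual for other stems of the series, at 8.73 and 1.98 CPM in pSFT-SFT, 15.1 and 10.8 CPM in ungrafted sft and 13.7 and 15.3 CPM in ungrafted WT stems. In WT recipients the donor went with a log2 difference of 0.42 (adjusted p = 0.88), and the difference between recipients was 2.65 (SE 0.43, adjusted p = 1), rank 2 of all genes by p. Solyc03g093120 had been picked on the donor response in sft recipients, which enters this difference, so that rank is a description only. Its direction differed from that of the FRUITFULL genes in other experiments, with log2 fold changes of -1.26 in pSFT-SFT against sft stems (adjusted p = 0.17) and -1.42 in 35S:SFT against WT stems (adjusted p = 0.26). The third of the higher genes carries the neighbouring identifier number, so reads of near-identical neighbours may have been split between them.

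The 12 higher genes differed in where else they were high. In WT recipients, 11 of 12 had a positive donor difference (median log2 0.43), 6 at an unadjusted p under 0.05, where 3.26% of all genes were higher at that threshold, and 0 called. That contrast shared its estimate of the spread with the one that ranked the genes, so the share over all genes is not a fair base. In pSFT-SFT against sft stems, however, 4 had a positive and 8 a negative fold change (median -0.61), with 4 called higher and 1 called lower, where 10.3% of all genes were called higher and 9.08% lower. In 35S:SFT against WT stems, 3 were positive, and the 2 called were FUL2 and FUL1, where 0.793% of all genes were called higher. In heated pHS:FT against heated sft stems, 6 of 11 tested were positive and 2 were called, FUL2 being one of them, where 2.01% of all genes were called higher. FUL2 was the member called higher in all 3 contrasts without grafts.

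Solyc03g020030 led the lower genes. It gave 2.98 and 4.24 CPM (95 and 148 reads) in 35S:SFT//sft stems, against 12.4 and 19 CPM (449 and 531 reads) in sft//sft stems, with a log2 fold change of -2.11 (SE 0.27, adjusted p = 0.21 by edgeR, and 0.035 with the term for the run of sample numbers). All libraries with the 35S:SFT donor were low, at 2.58 and 3.13 CPM in 35S:SFT//WT and 2.85 and 2.08 CPM in 35S:SFT//sp stems, against 22.9 and 23.9 CPM in WT//WT stems. In WT recipients it was called lower, with a log2 of -3.03 (adjusted p = 0.045, 1 of 3 genes called there, 0.0139%). It also fell in pSFT-SFT stems, to 0.439 ± 0.130 CPM, against 11.5 ± 0.278 CPM in sft stems (SD, n = 2 each, log2 fold change -4.71, SE 0.45, adjusted p = 0.0020). Smaller log2 fold changes that were not called by edgeR came from 35S:SFT against WT stems (-0.98, adjusted p = 0.37) and heated pHS:FT against heated sft stems (-0.84, adjusted p = 0.24). The sixth of the lower genes carries the neighbouring identifier number, with the same limit on its reads.

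Solyc09g092720, second among the lower genes, gave 3.92 and 4.52 CPM (125 and 158 reads) in 35S:SFT//sft stems, against 9.09 and 8.33 CPM (330 and 233 reads) in sft//sft stems. Its log2 fold change was -1.04 (SE 0.15, adjusted p = 0.35). The other grafts with the donor were higher, at 9.30 and 9.53 CPM in 35S:SFT//WT stems and 8.05 and 8.45 CPM in 35S:SFT//sp stems, against 12.2 and 15.3 CPM in WT//WT stems. In WT recipients the donor went with a log2 difference of -0.55 (adjusted p = 0.58), and the difference between recipients was -0.50 (adjusted p = 1). It fell in pSFT-SFT against sft stems (log2 fold change -1.57, SE 0.24, adjusted p = 0.0083) and gave -1.01 in heated pHS:FT against heated sft stems (adjusted p = 0.18). In 35S:SFT against WT stems it went the other way, at 0.39 (adjusted p = 0.68 by edgeR).

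The 12 lower genes were followed in the same contrasts. In WT recipients, 11 of 12 had a negative donor difference (median log2 -0.92), 10 at an unadjusted p under 0.05, where 3.59% of all genes were lower at that threshold, and 1 called, as 0.0139% of all genes were. The shared estimate of the spread limits these shares as it does for the higher genes. In pSFT-SFT against sft stems the median was -1.23, against -0.008 over all genes. There 8 had an unadjusted p under 0.05 on the lower side, as 16.8% of all genes did, 7 were called lower, as 9.08% of all genes were, and the other 4 did not pass either threshold, with values up to near 0. In heated pHS:FT against heated sft stems 11 of 12 had a negative fold change (median -0.92 against -0.002 over all genes). There 10 had an unadjusted p under 0.05 on the lower side, as 7.47% of all genes did, and 0 were called, where 0.38% of all genes were called lower. In 35S:SFT against WT stems, 7 had a negative and 5 a positive fold change, and 0 were called lower, as 0.943% of all genes were. No test compared the lower with the higher genes.

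**Figure D5:**
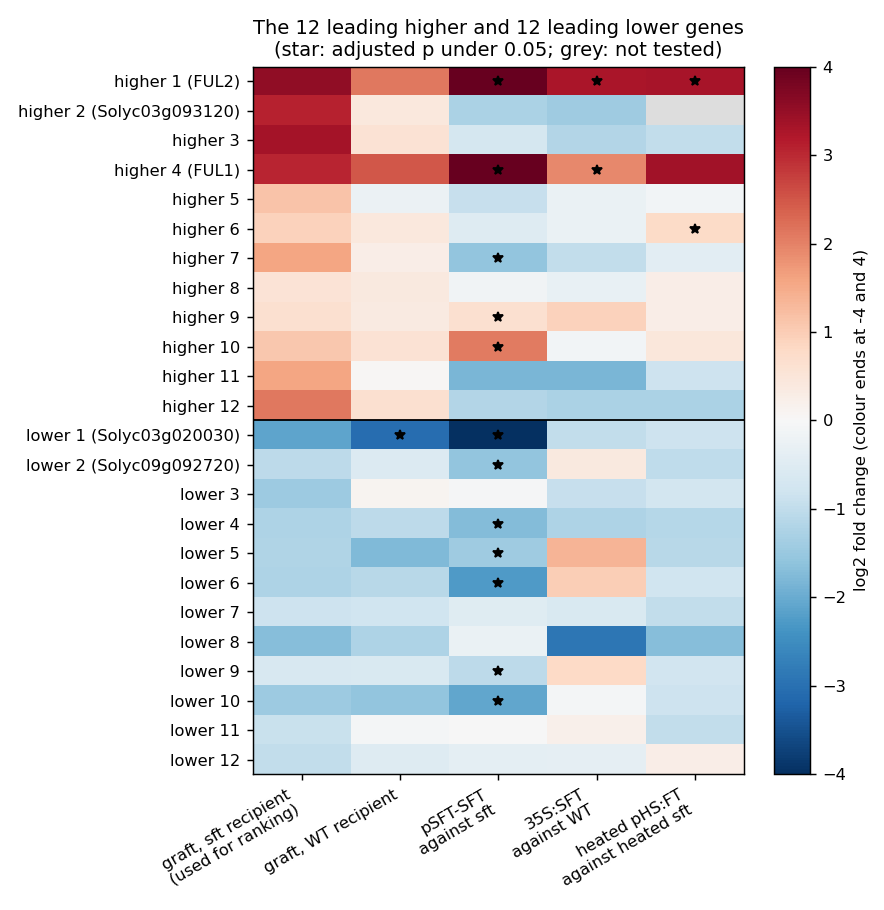
Log2 fold changes of the 12 leading higher and 12 leading lower genes. The first column is the graft contrast that ranked them, and the other 4 contrasts share no library with it. The contrast in WT recipients came from the same fit as the ranking and shared its estimate of the spread. Stars mark an adjusted p under 0.05 by edgeR and grey a gene not tested. FUL2 and FUL1 are red in all 5 columns, and 7 of the 12 lower genes carry a star in pSFT-SFT against sft stems.

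The wider lists were also compared with the other contrasts. Of the 492 genes higher at an unadjusted p under 0.05, 108 (22%) were higher at that threshold in 35S:SFT//WT against WT//WT stems, which is 15.4% of the list there, and 8 (1.63%) were lower; 3.26% of all genes were higher there. Of the 574 lower genes, 109 (19%) were lower there, 14.1% of that list, against 3.59% of all genes. Another 31 (5.40%) were higher, against 3.26% of all genes. Both graft contrasts came from 1 fit with 1 estimate of the spread for each gene. A gene with a small estimate can enter both lists, so the shares over all genes are not a fair base for this overlap. With pSFT-SFT against sft stems, 114 of the higher genes tested in both (24%, and 5.56% of that longer list) were called higher, against 9.86% of all genes tested in both, and 35 (7.37%) lower, against 9.14%. Of 511 lower genes, 129 (25.2%, and 6.79% of that list) were called lower and 26 (5.09%) higher. With 35S:SFT against WT stems, 14 higher genes (2.99%, and 8.81% of that list) were called higher, against 0.767% of all genes, and 17 lower genes (3.21%, and 8.85% of that list) were called lower, against 0.926%. With heated pHS:FT against heated sft stems, 33 of 457 higher genes (7.22%, and 8.05% of that list) were called higher, against 2% of all genes, and 5 lower genes (0.969%, and 6.58% of that list) were called lower, against 0.372%.

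These shares depended on single libraries, and so did the shares called in the opposite direction, for the higher and the lower genes alike. Without the first 35S:SFT//sft library, the share of lower genes called higher in pSFT-SFT stems rose above that over all genes. In 35S:SFT against WT stems, more of the lower genes were then called higher than lower. Without the first 35S:SFT//sft library, 9.06% of the higher genes were called higher in pSFT-SFT stems and 11.4% lower; without the second, 52.4% were called higher. Without the second sft//sft library the share was 14.8%. The share of lower genes called lower in pSFT-SFT stems moved less, between 20.3% and 30.9% over the 4 libraries left out in turn. For heated pHS:FT against heated sft stems, the share of higher genes became 3.27% without the first 35S:SFT//sft library, 26.3% without the second and 2.06% without the second sft//sft library. In WT recipients the share of higher genes ran from 11.4% to 33.3%, also lowest without the second sft//sft and highest without the second 35S:SFT//sft library, and that of lower genes from 16.3% to 23.7%. For 35S:SFT against WT stems the shares ran from 1.21% to 3.92% of the higher and from 0.752% to 3.99% of the lower genes, both lowest without the first 35S:SFT//sft library, and for the lower genes in heated pHS:FT stems from 0.55% (without the second sft//sft library) to 2.15% (without the second 35S:SFT//sft library). For the higher genes, the share was thus largest in all 4 contrasts where the first 35S:SFT//sft library stood alone for its group.

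The 35S:SFT//sft stems were finally set against the wild-type grafts. Against WT//WT stems, 18 genes were called (0.0835% of 21566), 3 higher and 15 lower, among them Solyc03g093120 (log2 fold change 2.62, adjusted p = 0.035), Solyc03g020030 (-2.69, adjusted p = 0.024) and Solyc09g092720 (-1.70, adjusted p = 0.021). These use the same 35S:SFT//sft libraries on which the genes had been ranked. Without either 35S:SFT//sft library, or without the second WT//WT library, 0 genes were called. DESeq2 called 251 (1.16%).

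Against 35S:SFT//WT stems, which shared the donor and differed in the recipient, 3 genes were called (0.0139%). Solyc06g017860 gave 2.67 and 3.32 CPM (85 and 116 reads) in 35S:SFT//sft stems, against 0.0614 and 0.0719 CPM (2 reads each) in 35S:SFT//WT stems (log2 fold change 5.42, SE 0.47, adjusted p = 0.033). Solyc01g073690 gave 166 and 175 CPM in 35S:SFT//sft stems and 326 and 342 CPM in 35S:SFT//WT stems (log2 fold change -0.97, SE 0.09, adjusted p = 0.033). Solyc01g073660 gave 5.68 and 5.30 CPM in 35S:SFT//sft stems and 16.3 and 21.2 CPM in 35S:SFT//WT stems (log2 fold change -1.77, SE 0.15, adjusted p = 0.033). Without any 1 of the 4 libraries 0 genes were called, and DESeq2 called 275 (1.28%).

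At all 3 genes the 4 libraries of sft recipients lay apart from the 4 of WT recipients, with or without the 35S:SFT donor. The genes were chosen for a call between 35S:SFT//sft and 35S:SFT//WT stems, so the separation of those libraries was set in advance. Over all genes tested, 6.82% separated the recipients in either direction. In sft//sft stems Solyc06g017860 stood at 2.81 and 3.22 CPM, against 2 reads in each WT//WT library. It gave 2.03 ± 0.324 CPM in ungrafted sft stems and had 0 reads in both ungrafted WT libraries (edgeR adjusted p = 0.087). pSFT-SFT stems had 0 and 1 reads there (adjusted p = 0.0035 against ungrafted sft stems), on the WT side. At Solyc01g073690, pSFT-SFT stems stood at 188 ± 12.5 CPM, against 179 ± 8.85 CPM in ungrafted sft stems (SD, n = 2 each; adjusted p = 0.58). Solyc01g073690 stood at 158 and 176 CPM in sft//sft stems and 313 and 311 CPM in WT//WT stems, and was among the 12 genes called between ungrafted sft and WT stems. Solyc01g073660 stood at 7.05 and 6.72 CPM in sft//sft stems and 13.9 and 13.1 CPM in WT//WT stems. Between 35S:SFT//sft and sft//sft stems the log2 fold changes were -0.01 for Solyc06g017860, 0.02 for Solyc01g073690 and -0.33 for Solyc01g073660, with adjusted p of at least 0.59 under each alternative. FUL2, by contrast, differed by 3.56 from sft//sft and by -0.22 from 35S:SFT//WT stems on the log2 scale.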

How the data were processed

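The authors deposited whole-number counts of reads per gene, 34728 lines for the graft, overexpression and FUL experiments and 34825 for heat shock. Per the labels' protocols, 5 uniform plants were chosen, stems were harvested in duplicate, and TruSeq v2 libraries were read as single 50 bp reads. Among the tools in the submitters' processing notes are TopHat2 2.1.0 and HTSeq 0.6.1; neither the genome build nor a strand setting is given in the sources used here. The kit leaves strand unmarked, so reads of a gene and an antisense partner cannot be told apart, and reads of near-identical genes may be split. Each column matched 1 sample and 0 were left unused.

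Counts were tested with edgeR 4.0.16 in R 4.3.3 (TMM, filterByExpr with minimum count 10 and minimum total 15, quasi-likelihood, two-sided), fitted to all groups of an experiment, with Benjamini-Hochberg adjustment over all genes tested; an adjusted p under 0.05 made a call. DESeq2 1.42.0, other scaling, filters, blocks and left-out libraries were alternatives. The edgeR procedure was tested on simulated data for the sign and size of fold changes, and the DESeq2 procedure was not. That check set no bound on missed or false calls, and the simulation held no effect of the run of sample numbers. Total counts per graft library (28114019 to 45790153) put 3 reads at 0.0838 to 0.105 CPM in the 4 libraries compared; this limit covers counting error only. A chi-square test of counts, run on both libraries of each of 15 groups used, gave 7.26 to 47.6 per degree of freedom, so none looked like 1 library counted again.

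Named genes were SFT, SP and the 4 FRUITFULL genes, the 12 higher and 12 lower genes with the smallest edgeR p (mean log2 of at least 1, groups not overlapping), and genes called with a replicate block or where few were called. At most 2 higher and 2 lower identifiers are printed per comparison, since the reference table matched 0 identifiers; 6 names were tied to identifiers from published knowledge, and 28 planned lists of gene products were not run. The identifier taken for FUL2 averaged 1313 CPM in libraries of 35S:TFUL2 stems and 3.45 CPM in those of WT stems. Members and lists were chosen with earlier results of these data known. Some titles and genotype labels disagree: samples titled sft in the overexpression experiment carry the genotype label SFT and were used as sft, and titles of grafts give the recipient first. The samples with the genotype label pSFT-SFT are titled pTFT, and the genotype label was followed. Deviations of same-numbered libraries correlated between -0.505 and 0.429 over 10 pairs of groups, and each value below -0.039 came from a pair with 35S:SFT//sp. Replicate numbers followed the run of sample numbers in every graft group but 35S:SFT//sp, where they were reversed. For 35S:SFT//sft and sft//sft, replicate number and run were therefore the same (r = 0.2).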

Additional observations from a re-analysis of the deposited data

Results flagged for a closer look

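Solyc01g073660 moved in opposite directions with the 35S:SFT donor in the 2 recipients. It was lower in both 35S:SFT//sft libraries (5.68 and 5.30 CPM) than in both sft//sft libraries (7.05 and 6.72 CPM), and higher in both 35S:SFT//WT libraries (16.3 and 21.2 CPM) than in both WT//WT libraries (13.9 and 13.1 CPM). The difference between the donor responses was -0.80 on the log2 scale (SE 0.21, adjusted p = 1 by edgeR), so it did not pass the threshold. In sft recipients the fall had an unadjusted p of 0.067 by edgeR, and 32.9% of all genes had groups that did not overlap there. The gene was named because it was called lower in 35S:SFT//sft than in 35S:SFT//WT stems. Both of those groups enter the difference, so this choice favoured a negative value.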

How the results depend on the processing

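The count of called genes moved with the test and with single libraries. For 35S:SFT//sft against sft//sft (0 called), it was 2 without a filter on low counts, 42 with DESeq2 and 0 to 2 with 1 library left out, and stayed at 0 with RLE size factors, a filter of 1 CPM in 2 libraries, or the compared groups only. With the replicate block it was 1 (FUL2), and 39 with DESeq2 and this block; the label-run block, which splits libraries into an early and a late run of sample numbers, gave 5. Against WT//WT (18 called), the count was 34 without a filter, 9 with the replicate block, 38 with the label-run block, 0 with the compared groups only, 251 with DESeq2, 195 with DESeq2 and the replicate block, and 0 to 14 with 1 library left out. Against 35S:SFT//WT (3 called), these counts were 5, 0, 50, 0, 275, 217 and 0 in each case. The difference between recipients (0 called) gave 21 with DESeq2, 19 with DESeq2 and the replicate block, and 0 to 1 with 1 library left out.

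In the contrasts without grafts, pSFT-SFT against sft (4092 called) gave 1895 to 2501 with 1 library left out. 35S:SFT against WT (370 called) gave 630 without a filter, 18 with the compared groups only, 1509 with DESeq2 and 10 to 1339 with 1 library left out. Heated pHS:FT against heated sft (491 called) gave 315 with the replicate block, 1033 with DESeq2 and 17 to 897 with 1 library left out. A group left with 1 library was assumed to vary like the others. Solyc06g017860 and Solyc01g073690, near 0 in 35S:SFT//sft against sft//sft, ran from -0.175 to 0.153 and from -0.062 to 0.105 on the log2 scale with 1 library left out, changing sign (0.09 without sft//sft replicate 2 for the first, -0.02 without 35S:SFT//sft replicate 2 for the second). The other 9 named genes tested kept their direction. Same-numbered libraries were not paired by the labels, and deviations of libraries of the same label run correlated at over 0.1 in 8 of 10 pairs of groups (-0.039 to 0.505); the cause was not tested. The label-run block also made the calls of FUL2, Solyc03g093120 and Solyc03g020030. The shares left out by library were added after the data were seen. Depth limits MBP10, MBP20 and SP.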
